A study of Mus musculus with 6 samples.

Results

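TIA1 and TIAR are RNA-binding proteins that help to assemble stress granules, the cytoplasmic bodies in which a stressed cell stores untranslated mRNA. Other proteins of the same bodies are G3BP1 and G3BP2, CAPRIN1, the poly(A)-binding protein PABPC1, FMRP (encoded by Fmr1) with its paralogs FXR1 and FXR2, and ataxin-2 (Atxn2). The mRNA levels of these 8 genes were followed in immortalized murine embryonic fibroblasts (MEF) that lacked either TIA1 or TIAR. They were chosen by name, and the array held 15 probes named for them among 55681 probes: G3bp1, G3bp2 and Fxr1 had 2 each, Caprin1 and Fmr1 had 3 each, and Pabpc1, Fxr2 and Atxn2 had 1 each. Total RNA was hybridized to 1-colour Agilent mouse arrays, with 2 arrays per group and 6 in all. No treatment is given in the labels. The wild-type (WT) MEF were of strain background W4, the TIA1 knockout (KO) MEF of BALB/c and the TIAR KO MEF of C57BL/6, so that genotype, strain and the history of each line cannot be told apart. All arrays were on 1 slide, and the TIA1 KO arrays filled another row of it than the other 4, which leaves slide row confounded with that knockout as well.

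When translation initiation is blocked, mRNAs released from ribosomes are gathered into stress granules together with small ribosomal subunits and initiation factors. G3BP1 and G3BP2 are the scaffolds that condense with free mRNA, and CAPRIN1 binds them and promotes this step. PABPC1 coats the poly(A) tail and joins it to the cap-binding complex, ataxin-2 binds PABPC1, and FMRP, FXR1 and FXR2 are polysome-associated RNA-binding proteins that enter the granules with their mRNAs. All of these proteins are made in unstressed cells and move into granules when stress comes. An mRNA level in these MEF therefore describes the supply of the parts and not the granules themselves. The paper reports raised reactive oxygen species in both knockout lines, so these lines are not taken as unstressed here.

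The 15 probes differed widely in what they could measure. G3bp1 and G3bp2 are paralogs, and of the 105 pairs of member probes the closest pair was a G3bp1 probe and a G3bp2 probe. They are shown because the values of both paralogs are given further on. Aligned without gaps, they shared 37 of 49 bases (75.5%), in capitals, against 25 shared bases for the next closest pair. Cross-hybridization between them was not tested.
G3bp1 probe A_52_P486702: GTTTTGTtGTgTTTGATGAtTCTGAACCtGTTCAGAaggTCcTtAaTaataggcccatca
G3bp2 probe A_52_P636830: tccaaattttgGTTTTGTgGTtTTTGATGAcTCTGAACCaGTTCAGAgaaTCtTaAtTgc
The probes of Pabpc1, Fmr1 and Fxr1 printed next are those of a member whose WT arrays disagreed, of the Fmr1 reading furthest from WT in TIA1 KO MEF and of the Fxr1 reading furthest from it, and each could be read without a stop codon in at least 1 frame.
Pabpc1 probe A_66_P115406: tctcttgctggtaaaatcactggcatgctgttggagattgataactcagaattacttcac
Fmr1 probe A_52_P493091: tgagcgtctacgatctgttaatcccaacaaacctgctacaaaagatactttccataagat
Fxr1 probe A_55_P2069415: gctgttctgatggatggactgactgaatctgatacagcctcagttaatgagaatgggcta
Positions of all probes are those of the array files, on the mouse build mm9. Whether a probe lies in coding or untranslated sequence was not determined, because no annotation of that build was used here.

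The members were expressed in every group. All 15 probes were well above background on both WT and both TIAR KO arrays, 13 on the first TIA1 KO array and 14 on the second. No member probe differed between groups by the thresholds used for all probes, which were a fold change above 2 with an adjusted p under 0.05. In TIA1 KO against WT MEF 0 of the 15 were called, where 3.52% of all 55681 probes were called and 6.87% of the 13823 probes that were well above background on all 6 arrays. In TIAR KO against WT MEF 0 were called against 5.78% and 11.2%, and in TIAR KO against TIA1 KO MEF 0 against 3.31% and 6.01%. Split by direction, 2.18% of all probes were called higher and 1.33% lower after loss of TIA1, 3.40% and 2.38% after loss of TIAR, and 1.68% and 1.63% between the knockouts. These calls used limma with Benjamini-Hochberg adjustment over all probes. At an unadjusted p under 0.05 the same fits gave 4, 3 and 4 of 15 member probes, beside 28.0%, 20.2% and 22.6% of all probes, and a fold above 2 by itself was reached by 1, 0 and 1 member probes, beside 13.9%, 7.67% and 12.2% of all. With 2 arrays per group, an exact permutation test of a single probe could not go below a two-sided p of 0.333, and for that reason no such test is given. Values printed below are normalized log2 intensities, differences are on the log2 scale with their standard error (SE) from limma, and intervals are 95% intervals for 1 probe, not adjusted for the number of probes.

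**Figure D1:**
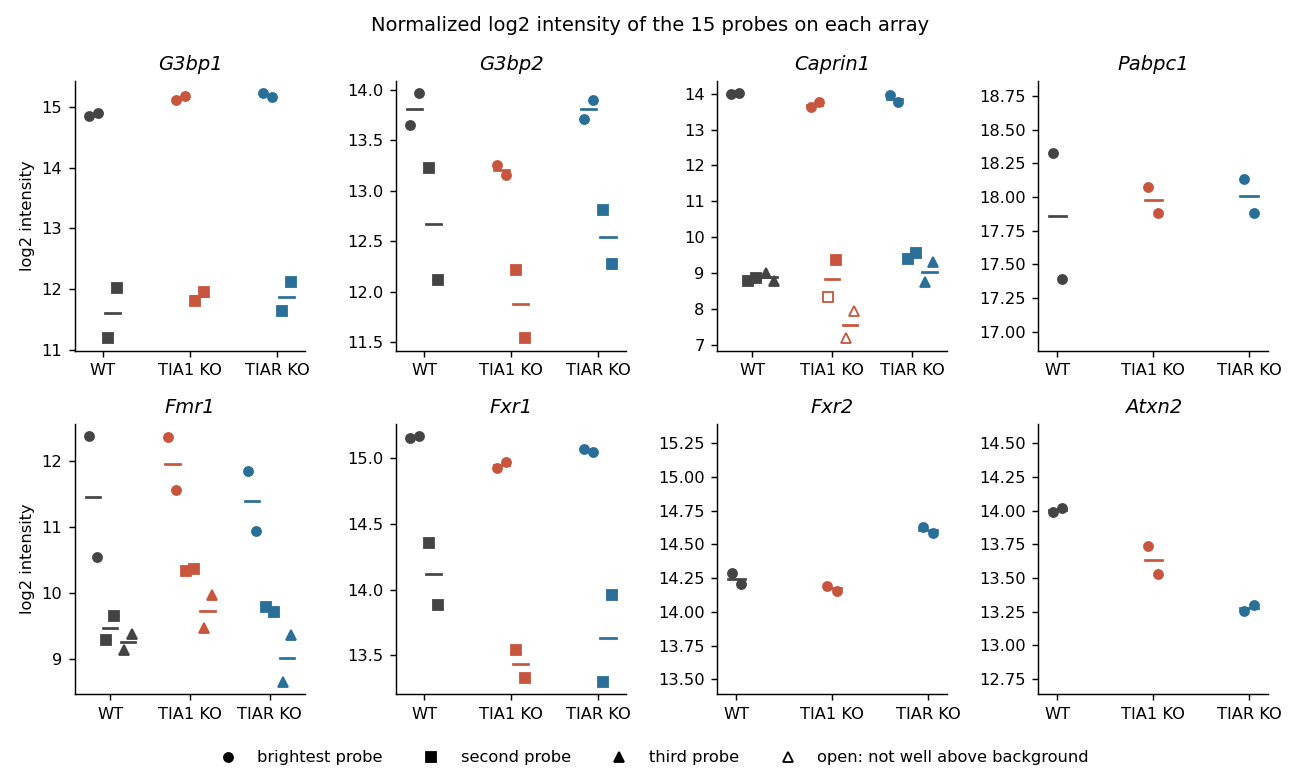
Normalized log2 intensity of the 15 probes on each of the 6 arrays, 1 panel per gene with its own vertical axis, where each point is an array and each bar a mean of 2. Circles, squares and triangles mark the brightest, the second and the third probe of a gene, and open symbols mark arrays on which the probe was not well above background, which happened only in TIA1 KO MEF and only for Caprin1. Atxn2 steps down from WT (13.99 and 14.02) through TIA1 KO to TIAR KO (13.26 and 13.30), while the brightest Fmr1 probe differs more between the WT arrays (12.37 and 10.54) than between groups.

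The knocked-out genes were read first. The brighter Tial1 probe, of the gene that encodes TIAR, lay at 13.22 on the second WT array, at 14.07 and 13.69 for TIA1 KO but at 9.57 and 11.60 for TIAR KO MEF, and its spot on the first WT array was left out as an outlier. Its difference in TIAR KO MEF, −2.63 ± 0.86 against the lone WT value, did not pass the test (adjusted p = 0.196). The other Tial1 probe read 11.71 and 11.09 on the WT, 11.85 and 11.49 on the TIA1 KO, then 10.00 and 9.65 on the TIAR KO arrays, and it fell in TIAR KO MEF (−1.58 ± 0.26, adjusted p = 0.0248). The TIAR KO arrays were the lowest for both Tial1 probes. The brightest Tia1 probe read 10.72 and 8.54 on the WT, 7.84 and 8.45 on the TIA1 KO, then 9.56 and 9.58 on the TIAR KO arrays. The second Tia1 probe read 9.56 and 9.90 in WT against 7.54 and 8.66 in TIA1 KO MEF. For both of these the TIA1 KO arrays lay below the WT arrays without passing the test (adjusted p = 0.283 and 0.118), and the dimmest Tia1 probe, which was not above background in WT MEF, read higher in TIA1 KO MEF (7.88 and 8.53 against 7.43 and 7.24). Where these probes lie relative to the disrupted part of each gene was not determined. The paper reports that the mRNA and protein of the targeted gene were absent in each knockout line, by RT-PCR and western blotting. Gapdh, the reference gene of the study, differed from WT at its brightest probe, which the files place on chromosome 7, by −0.04 in TIA1 KO MEF, and by 0.09 in the TIAR KO line. Over all 8 probes named Gapdh the differences ran from −0.39 to 0.10 for TIA1 KO and from −0.29 to 0.09 for TIAR KO, and none passed the test.

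The scaffold genes came first among the members. The brighter G3bp1 probe (A_55_P1963309, chr11:55313951-55314010) read 14.85 and 14.90 on the WT, 15.12 and 15.18 on the TIA1 KO, then 15.23 and 15.17 on the TIAR KO arrays. Both knockouts lay above WT without overlap, and replicate arrays differed by far less than the groups did. The differences were 0.27 ± 0.15 after loss of TIA1 (adjusted p = 0.290) and 0.32 ± 0.14 after loss of TIAR (adjusted p = 0.302), which is 1.21-fold and 1.25-fold. The other G3bp1 probe (A_52_P486702, chr11:55312117-55312967, a span of 851 bases that crosses an exon junction) read 11.19 and 12.02 on the WT, 11.81 and 11.95 on the TIA1 KO, then 11.64 and 12.11 on the TIAR KO arrays. Here the WT arrays stood 0.83 apart and enclosed every other value but 1 TIAR KO array (12.11). Its differences from WT, 0.28 ± 0.33 and 0.27 ± 0.32, were close in size to those of the brighter probe, with a wider error.

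Neither probe of the paralog G3bp2 passed the test in either knockout. Its brighter probe (A_52_P556281, chr5:92481356-92481415) read 13.65 and 13.97 on the WT, 13.26 and 13.16 on the TIA1 KO, then 13.71 and 13.90 on the TIAR KO arrays. TIA1 KO arrays were the lowest and did not overlap with either of the other groups, which overlapped with each other. The difference of −0.60 ± 0.18 in TIA1 KO MEF had an interval from −1.10 to −0.10 and did not pass the adjustment (adjusted p = 0.141 by limma). In TIAR KO MEF the difference was −0.00 ± 0.18, with an interval from −0.45 to 0.45. The second G3bp2 probe (A_52_P636830, chr5:92484414-92484473) read 13.22 and 12.12 on the WT, 12.21 and 11.54 on the TIA1 KO, then 12.81 and 12.27 on the TIAR KO arrays. Its difference in TIA1 KO MEF was likewise below 0 (−0.80 ± 0.47, adjusted p = 0.318), but the WT arrays were 1.11 apart and the groups overlapped. Whether the paralogs differed in their response was not tested.

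Caprin1, whose protein binds both scaffolds, gave a different picture at each of its 3 probes. The brightest (A_55_P2070194, chr2:103605819-103605878) read 14.00 and 14.01 on the WT, 13.62 and 13.77 on the TIA1 KO, then 13.95 and 13.76 on the TIAR KO arrays. Both knockouts lay below WT, at differences of −0.31 ± 0.15 (adjusted p = 0.257) and −0.15 ± 0.15 (adjusted p = 0.691), and neither difference passed the test. The second probe (A_55_P2116054, chr2:103603182-103603241) read 8.78 and 8.86 on the WT, 8.33 and 9.36 on the TIA1 KO, then 9.40 and 9.55 on the TIAR KO arrays. TIAR KO arrays were above WT at this probe by 0.66 ± 0.15, with an interval from 0.28 to 1.03 (adjusted p = 0.0650). The TIA1 KO arrays were 1.04 apart and only 1 of them was well above background.

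The third Caprin1 probe (A_52_P127459, chr2:103608278-103608337) is assigned by the files to another transcript of the gene (NM_001111291, against NM_016739 for the brightest). It read 9.01 and 8.79 on the WT, 7.18 and 7.93 on the TIA1 KO, then 8.76 and 9.32 on the TIAR KO arrays. The TIA1 KO arrays were the lowest and neither was well above background, so the size of the difference is uncertain. With low readings raised to a floor, on the scale used here, the signal was 1.88-fold lower than in WT and 2.07-fold lower than in TIAR KO MEF. The floor is the lowest signal rated above background on an array, 8.05 on the first TIA1 KO array and 5.78 on the second. The second reading (7.93) lay above its floor and was kept, so these floored folds are not strict limits. The measured differences were −1.34 ± 0.31 from WT (adjusted p = 0.100) and 1.48 ± 0.35 for TIAR KO over TIA1 KO MEF (adjusted p = 0.124). Both rest on TIA1 KO readings that were not well above background. When the arrays were scaled to the probes well above background on all 6 of them instead, the differences were −0.28 ± 0.20 from WT (adjusted p = 0.283 by limma) and 0.76 ± 0.26 between the knockouts (adjusted p = 0.135). Both were smaller than the floored folds. Without the second TIA1 KO array the probe passed both thresholds, at −1.72 from WT with an adjusted p of 0.0133, and without the first it was at −0.97 with an adjusted p of 0.0821. Such fits have a lone TIA1 KO array, not well above background at this probe, and assume that it varies like the WT arrays, so they say nothing of the spread among TIA1 KO samples.

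Pabpc1 encodes the abundant cytoplasmic poly(A)-binding protein, and its comparisons were limited by the WT arrays. Its probe (A_66_P115406, chr15:36526752-36526811) read 18.33 and 17.39 on the WT, 18.08 and 17.88 on the TIA1 KO, then 18.14 and 17.88 on the TIAR KO arrays. Every knockout array fell between the WT arrays, which were 0.94 apart. The differences from WT were 0.12 ± 0.36 and 0.15 ± 0.33 (adjusted p = 0.836 and 0.871), with intervals from −0.86 to 1.10 and from −0.68 to 0.97. A change of up to about the fold threshold in either direction was therefore within the error of this probe. No Pabpc1 spot was saturated on any array.

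Atxn2, whose protein binds PABPC1, was the member that stood furthest from WT in TIAR KO MEF. Its probe (A_55_P2086983, chr5:122264842-122264901) read 13.99 and 14.02 on the WT, 13.74 and 13.53 on the TIA1 KO, then 13.26 and 13.30 on the TIAR KO arrays. The 3 groups did not overlap, and the TIAR KO arrays were the lowest. In TIAR KO MEF the difference was −0.73 ± 0.14 (1.65-fold lower), with an interval from −1.08 to −0.37 and an adjusted p of 0.0418 by limma, so that it passed the false discovery threshold but not the fold threshold. At that threshold and any fold, 7.75% of all probes and 15.4% of those well above background on all 6 arrays passed, beside 1 of 15 member probes. The Atxn2 difference in TIAR KO MEF missed it with the replicate number as a block, all groups fitted together, variance following intensity, or an offset of 16. The lowest adjusted p of any member by limma was then 0.0739, 0.0636, 0.0806 and 0.0961. The widest of these misses was exceeded with the processed signal scaled to its 75th percentile. Atxn2 was at −0.66 there, and the lowest adjusted p of any member by limma was 0.333. In the other direction, Atxn2 passed both thresholds when each array was only scaled to the median of all probes (−1.14, adjusted p = 0.0104 by limma). In the deposited log2 table of the authors the same difference was −0.71 with an adjusted p of 0.0531, and without each of the 4 arrays in turn the adjusted p lay between 0.131 and 0.150. In TIA1 KO MEF the difference was −0.37 ± 0.16 (adjusted p = 0.221), and the direct difference between the knockouts was −0.35 ± 0.16 (adjusted p = 0.292).

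**Figure D2:**
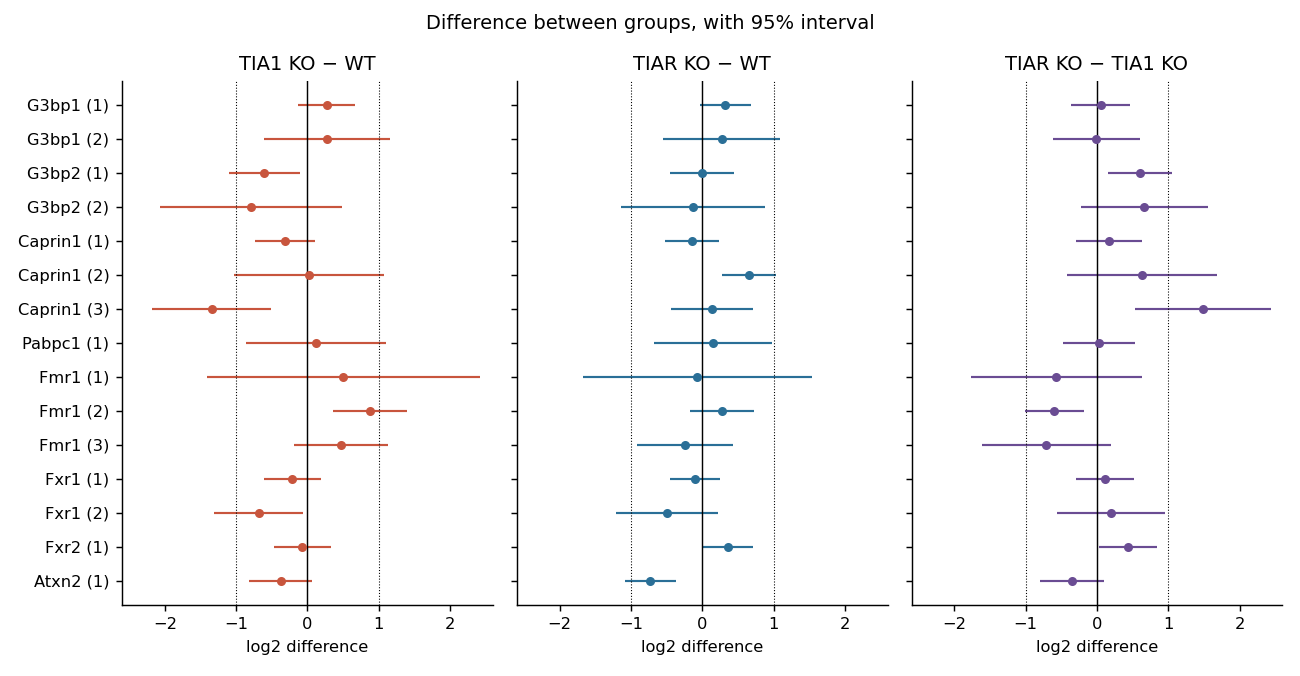
Difference in normalized log2 intensity between groups for each of the 15 probes, numbered by brightness within a gene, with its unadjusted 95% interval from limma; dotted lines mark the 2-fold threshold. Atxn2 in TIAR KO MEF (−0.73), the second Caprin1 probe in TIAR KO MEF (0.66) and the second Fmr1 probe in TIA1 KO MEF (0.88) are among those with intervals clear of 0, whereas the interval of the brightest Fmr1 probe in TIA1 KO MEF runs from −1.41 to 2.42. The third Caprin1 probe is drawn at its measured values, although it was not well above background on the TIA1 KO arrays. With low readings raised to the lowest signal rated above background, it was 1.88-fold lower than WT on this scale, which is not a strict limit. The difference was smaller when the arrays were scaled to the probes well above background on all 6.

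Fmr1 encodes FMRP, the RNA-binding protein lost in fragile X syndrome, and it was read by 3 probes. All 3 had a higher mean in TIA1 KO MEF than in WT, none past the test, whereas in TIAR KO MEF their differences from WT had both signs. The brightest (A_55_P2018941, chrX:65970891-65970950) read 12.37 and 10.54 on the WT, 12.37 and 11.56 on the TIA1 KO, then 11.85 and 10.94 on the TIAR KO arrays. The WT arrays were 1.83 apart and spanned all other values, so that differences of 0.50 ± 0.71 and −0.07 ± 0.64 could not be told from 0. The second probe (A_52_P493091, chrX:65948720-65948779) read 9.29 and 9.65 on the WT, 10.33 and 10.37 on the TIA1 KO, then 9.79 and 9.71 on the TIAR KO arrays. TIA1 KO arrays were the highest here and agreed closely with each other. The difference from WT was 0.88 ± 0.19, or 1.84-fold, with an interval from 0.36 to 1.40 and an adjusted p of 0.0958.

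TIAR KO MEF lay above WT at the second Fmr1 probe by 0.28 ± 0.18 (adjusted p = 0.492) and differed from TIA1 KO MEF by −0.60 ± 0.15 (adjusted p = 0.136). The third probe (A_55_P2183110, chrX:65948200-65948259) read 9.13 and 9.37 on the WT, 9.46 and 9.97 on the TIA1 KO, then 8.65 and 9.36 on the TIAR KO arrays. Again TIA1 KO arrays were the highest, by 0.47 ± 0.24 over WT (adjusted p = 0.273), and TIAR KO overlapped with WT. The second and the third probe lie within the same part of the gene, at some distance from the brightest, and share their arrays, so they are not independent measurements.

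By the fixed rule, the genes whose profile over the 6 arrays lay closest to the brightest Fmr1 probe were looked up, because no member had a called probe and this probe had the widest range among the brightest probes of the 8 genes. Among 9170 named probes well above background on all 6 arrays they were Acaca, which encodes acetyl-CoA carboxylase (distance 0.495, r = 0.999), A130088B03Rik (0.556, r = 0.945) and Gm15421 (0.616, r = 0.930), with distances of mean-centred log2 values. Acaca read 14.71 and 13.42 on the WT, 14.76 and 14.17 on the TIA1 KO, then 14.33 and 13.74 on the TIAR KO arrays. In all 3 groups its first array was higher than its second, as for Fmr1. The likeness therefore lies mostly between replicate arrays.

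The FMRP paralogs Fxr1 and Fxr2 had no probe that passed the test in either knockout. The brighter Fxr1 probe (A_51_P372463, chr3:33968072-33968131) read 15.15 and 15.17 on the WT, 14.92 and 14.97 on the TIA1 KO, then 15.07 and 15.05 on the TIAR KO arrays. WT was highest and TIA1 KO lowest, with no overlap, yet the differences from WT were only −0.21 ± 0.15 (adjusted p = 0.375) and −0.10 ± 0.14 (adjusted p = 0.778). The second Fxr1 probe (A_55_P2069415, chr3:33963181-33963240) read 14.35 and 13.89 on the WT, 13.54 and 13.33 on the TIA1 KO, then 13.30 and 13.96 on the TIAR KO arrays. TIA1 KO lay below WT without overlap (−0.69 ± 0.23, interval from −1.31 to −0.06, adjusted p = 0.157), whereas TIAR KO overlapped with WT (−0.49 ± 0.28, adjusted p = 0.435).

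The Fxr2 probe (A_55_P1969166, chr11:69466722-69466781) read 14.29 and 14.21 on the WT, 14.19 and 14.16 on the TIA1 KO, then 14.63 and 14.59 on the TIAR KO arrays. TIAR KO arrays stood above both other groups, and TIA1 KO arrays lay just under WT. The difference was 0.36 ± 0.14 from WT (adjusted p = 0.247 by limma) and 0.43 ± 0.15 from TIA1 KO MEF (adjusted p = 0.203), and that of TIA1 KO MEF from WT was −0.07 ± 0.15 (adjusted p = 0.75).

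Over all members, direction was divided. In TIA1 KO against WT MEF the arrays of the groups did not overlap at 10 of 15 member probes, 3 higher and 7 lower, beside 26.0% higher and 39.8% lower among all probes and 29.4% and 35.7% among those well above background on every array. In TIAR KO against WT MEF they did not overlap at 7, 4 higher and 3 lower, beside 22.0% and 27.0% of all probes and 29.9% and 33.6% of the bright ones. In TIAR KO against TIA1 KO MEF they did not overlap at 9, 6 higher and 3 lower, beside 35.4% and 24.8% of all and 34.6% and 32.1% of the bright ones. The median difference over the member probes was −0.07 for TIA1 KO, −0.00 for TIAR KO and 0.11 between the knockouts, and over all probes it was −0.10, −0.02 and 0.06. The median size of the differences, whatever their sign, was 0.37, 0.24 and 0.43 for the members and 0.39, 0.20 and 0.35 for all probes. Both comparisons with WT share the WT arrays.

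The spread between replicates set the limit for several members. The SD between replicate arrays, pooled over the member probes, was 0.473 among WT, 0.327 among TIA1 KO arrays and 0.302 among TIAR KO arrays, and over the 13823 bright probes just defined it was 0.343, 0.249 and 0.349. The group difference was larger than the wider of the replicate differences at 8 of 15 probes with loss of TIA1, beside 48.9% of all probes and 54.3% of the bright ones, and at 5 of 15 with loss of TIAR, beside 36.2% and 50.9%. The widest WT replicate differences were those of the brightest Fmr1 probe, the second G3bp2 probe, Pabpc1 and the second G3bp1 probe. The arrays of a group came from independent samples, but whether these were separate lines is not stated, so the p-values measure the spread between these samples only.

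**Figure D3:**
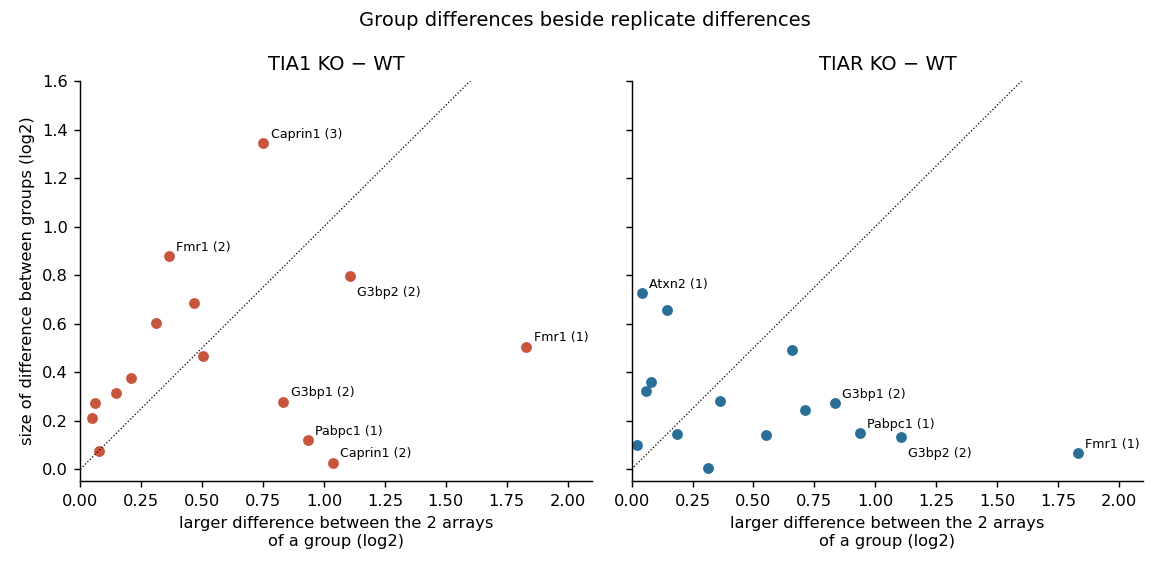
Size of the difference between groups (vertical axis, log2) against the larger of the replicate differences within the groups (horizontal axis, log2), 1 point per probe; points above the dotted line have groups further apart than replicates. Above the line lie 8 of 15 points for TIA1 KO (48.9% of all probes) and 5 of 15 for TIAR KO (36.2% of all probes), and the brightest Fmr1 probe lies furthest to the right, at 1.83.

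The comparisons with TIA1 KO MEF depended on how the arrays were brought to a common scale. The TIA1 KO arrays were brighter where no transcript is measured: the median signal of the negative control spots was 196 and 119 there, against 112 and 103 in WT and 96.7 and 88.6 in TIAR KO MEF. The median signal of all spots was 458 and 218, against 152 and 140 and 136 and 119. Fewer probes stood well above background on the TIA1 KO arrays (16021 and 19996) than on the others (23569 to 26295). When each array was only scaled to the median of all probes, 11 member probes were called in TIA1 KO MEF, all lower, with a median of −1.67, beside 28.4% of all probes, of which 11.9% were higher. Under that scaling Gapdh was at −1.41 and the median of probes well above background on all arrays at −1.53, so that the member median differed from that of the bright probes by −0.14. When the arrays were scaled to the bright probes instead, the member median was −0.12 and 2 probes were called, the second and the third of Fmr1, at 1.26 and 1.07 (adjusted p = 0.0238 for both), beside 30.4% of all probes, of which 94.8% were higher. In the deposited log2 table the median was −0.18 and no member was called.

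**Figure D4:**
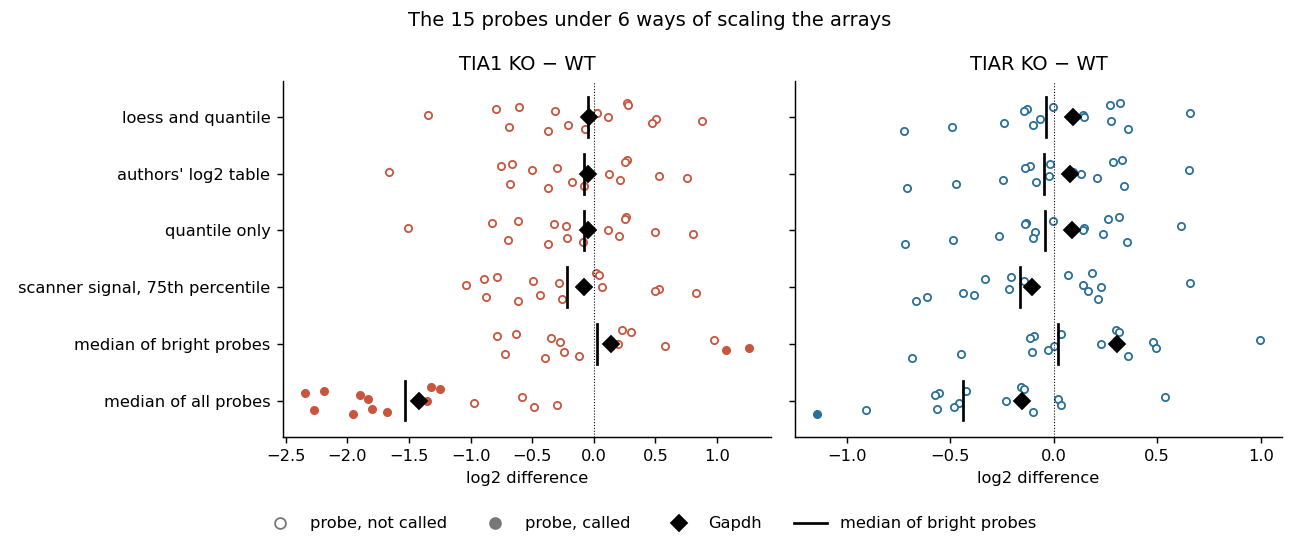
Log2 difference from WT of the 15 probes (circles, filled where called) under 6 ways of scaling the arrays, with the brightest Gapdh probe (diamond) and the median of the 13823 probes that stood well above background everywhere (bright probes, vertical bar). Scaling to the median of all probes moves the members, Gapdh (−1.41) and the bright probes (−1.53) together in TIA1 KO MEF; the other 5 ways give 0, 0, 0, 0 and 2 called members there.

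The proteins that work with these members were read in gene lists. A gene was counted by its brightest probe, and counts are set against the shares of all probes given above, 3.52% after loss of TIA1 and 5.78% after loss of TIAR. Among probes well above background on all 6 arrays these shares were higher, at 6.87% and 11.2%. Of 14 partners of G3BP and CAPRIN1, 1 fell in TIA1 KO MEF and 13 were not called. That gene was Ubap2l, which encodes a G3BP-binding granule protein. Its brighter probe was at −1.33, and its second probe read 12.19 and 12.02 in WT against 10.76 and 10.65 in TIA1 KO and 11.74 and 11.91 in TIAR KO MEF. At the second probe the TIA1 KO arrays were lowest, with a difference of −1.40 ± 0.16 (adjusted p = 0.0343 by limma), whereas TIAR KO MEF differed by −0.27 (adjusted p = 0.433). In TIAR KO MEF none of the 14 was called by its brightest probe. Usp10, which encodes a G3BP-binding deubiquitinase, was at −0.67 there (adjusted p = 0.0806). Atxn2l, the paralog of Atxn2, was at −0.76 (adjusted p = 0.039 by limma), short of the fold threshold. In the other direction, a second probe of Nufip2, another of the 14, was at 0.74 in TIAR KO MEF (adjusted p = 0.0526), with its brightest probe at −0.01. A second probe of Larp4 fell (−1.21 ± 0.20, adjusted p = 0.0271), with the brightest Larp4 probe at −0.14.

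Partners of PABPC1 were called in both knockouts. Of 17 genes of the cap-binding complex and of PABP partners, 0 rose and 2 fell in TIA1 KO MEF, and 1 rose and 2 fell in TIAR KO MEF. Paip1, which encodes a PABP-interacting protein that promotes translation, read 11.05 and 11.01 on the WT, 8.64 and 9.31 on the TIA1 KO, then 9.60 and 9.97 on the TIAR KO arrays. WT arrays were the highest, and Paip1 fell in both knockouts (−2.05 ± 0.27, adjusted p = 0.0447, and −1.24 ± 0.18, adjusted p = 0.0168), although only 1 TIA1 KO array was well above background. Its dimmer second probe was not called in either knockout, at 0.41 and 1.31. Paip2b, which encodes an inhibitory PABP-binding protein, read 12.92 and 13.03 in WT and 11.25 and 11.46 in TIA1 KO MEF, and it fell there (−1.62 ± 0.17, adjusted p = 0.0269 by limma). In TIAR KO MEF it read 12.33 and 12.16, also below WT but not called (−0.73 ± 0.15, adjusted p = 0.0509).

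Pabpc4, a paralog of Pabpc1, read 14.99 ± 0.01 on the WT arrays (mean ± SD, n = 2), 14.86 and 14.75 on the TIA1 KO, then 13.60 and 13.75 on the TIAR KO arrays. TIAR KO arrays were the lowest, with a difference of −1.31 ± 0.15 (adjusted p = 0.00710), while TIA1 KO MEF differed by −0.18 (adjusted p = 0.447). Eif4a2, which encodes an RNA helicase of the cap-binding complex, rose in TIAR KO MEF (1.01 ± 0.16, adjusted p = 0.0211).

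None of 17 initiation factor genes (subunits of eIF3 and eIF2, and Eif5) was called by its brightest probe in either knockout. A second probe of Eif2s1, the eIF2 subunit whose phosphorylation is a common trigger of stress granules, read 8.77 and 8.94 on the WT, 11.93 and 11.46 on the TIA1 KO, then 11.45 and 10.92 on the TIAR KO arrays, and rose in both (2.84 ± 0.22, adjusted p = 0.0168, and 2.33 ± 0.22, adjusted p = 0.00398). The brightest Eif2s1 probe was at −0.14 and −0.50 and was not called, so the probes of this gene disagreed. Of 19 genes of processing bodies and mRNA decay, 0 were called in TIA1 KO MEF and 1 fell in TIAR KO MEF, namely Dcp1b, which encodes a decapping cofactor. Its second probe read 10.15 and 10.31 on the WT, 9.81 and 9.87 on the TIA1 KO, then 8.01 and 7.80 on the TIAR KO arrays. It fell in TIAR KO MEF (−2.32 ± 0.16, adjusted p = 0.00149 by limma), as did the brighter probe (−2.01, adjusted p = 0.009). The Dcp1b probes overlap (chr6:119170153-119170212 and chr6:119170144-119170203), so they are not independent measurements. Of 7 FMRP partners 0 were called in TIA1 KO MEF and 1 fell in TIAR KO MEF, Nufip1, which encodes a nuclear FMRP-interacting protein (−1.23 ± 0.18, adjusted p = 0.0177 by limma). In TIA1 KO MEF Nufip1 was at −1.51 ± 0.37 without a call (adjusted p = 0.108), with only 1 of those arrays well above background. A second probe of Pura, which encodes a single-stranded nucleic acid-binding protein, fell in TIAR KO MEF too (−1.02 ± 0.14, adjusted p = 0.0154), with the brightest Pura probe at −0.99 (adjusted p = 0.105).

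Leaving out 1 array changed the number of calls in TIA1 KO MEF widely, as given in the last section. Such a fit takes its spread from the group that keeps both arrays. The SD between replicate arrays over all probes was 0.274 in WT and 0.445 in TIA1 KO MEF. The counts therefore do not show on which arrays the calls rested. In TIAR KO MEF between 2281 and 2970 probes were called without each array in turn.

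The lines also differed in fibroblast markers, which moved in the same comparisons. Of 12 such markers 8 rose in TIA1 KO MEF, 9 rose in TIAR KO MEF and none fell. Their summed linear signal was 539194 and 571887 in WT MEF, with 1347340 and 1322860 after loss of TIA1 and 1416220 and 1444890 after loss of TIAR. The brightest probe was that of S100a4 on both WT arrays and on 1 TIAR KO array, and that of Col1a2 on the other 3, which does not rank their mRNA levels. Col3a1, a fibrillar collagen gene, read 9.52 and 9.08 on the WT, 15.59 and 15.65 on the TIA1 KO, then 15.16 and 16.65 on the TIAR KO arrays. Pdgfrb, a receptor gene of mesenchymal cells, was 3.59 ± 0.35 higher in TIA1 KO MEF. Pdgfra was not well above background on either WT array. With low WT readings raised to the floor described for Caprin1, it was 9.50-fold higher after loss of TIA1 and 26.1-fold higher after loss of TIAR. Dcn lay at 6.56 and 6.62 in WT, at 9.20 and 9.29 in TIA1 KO and at 15.67 and 15.82 in TIAR KO MEF. Thy1 lay at 6.62 and 6.98 in WT and at 14.83 and 14.74 in TIAR KO MEF, but at 7.10 and 7.48 in the TIA1 KO line, with neither of those arrays well above background and no call (adjusted p = 0.247). Both probes were well above background on 1 of the WT arrays, and Dcn on 1 of the TIA1 KO arrays. Lum was not well above background on any array. In a bulk sample fewer cells of a type and less RNA per cell cannot be told apart, and the part of these differences in the member values was not tested.

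Markers of other cell types were mostly dim. Of 8 leukocyte markers, 4 to 6 were well above background on an array, with Cd14 brightest in WT and Itgam in the knockouts and the pan-leukocyte gene Ptprc not above background on any. Of these 8, 2 rose in TIA1 KO MEF, 1 fell in TIAR KO MEF, and between the knockouts 1 was higher (Cd68) and 3 were lower (Itgam, Cd14 and Tyrobp) in TIAR KO MEF. Itgam was 1.82 ± 0.23 higher in TIA1 KO MEF than in WT, and Tyrobp read 8.44 and 8.08 there against 6.75 and 6.44 in WT, with only 1 TIA1 KO array and neither WT array well above background. Summed linear signal of this list was 11325 and 10608 in WT MEF, 22004 and 19228 after loss of TIA1 and 10084 and 10166 after loss of TIAR. Cd14 fell in TIAR KO MEF (−1.32 ± 0.18). Of 7 epithelial markers 2 to 5 were above background, with Krt19 brightest on every array and summed signals from 5560 in WT to 11383 in TIA1 KO MEF. In TIA1 KO MEF 2 rose (Krt8 and Krt19, at 1.21 and 1.05). In TIAR KO MEF 3 rose (Krt8 at 1.23, Krt18 at 2.71 and Cdh1, 2.53-fold with low WT readings raised to the floor). Of 6 endothelial markers 2 to 4 were above background, and Kdr was the brightest with summed signals from 3355 to 4179. Cdh5 and Tie1 were above background on no array, and none of the 6 was called by its brightest probe. A dim second probe of Kdr was 2.32-fold higher in TIAR KO MEF with low WT readings raised to the floor. Of 6 muscle markers 0 to 2 were above background, with summed signals from 712 to 1071, and Des rose in TIAR KO MEF (1.15 ± 0.15). The part of these differences in the member values was not tested either.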

How the data were processed

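RNA from the 3 kinds of MEF (2 arrays each) was measured on 1-colour Agilent arrays. The authors deposited, per array, the linear intensity of each spot with its local background and flags (Feature Extraction 10.7.3.1), not normalized between arrays, and normalized log2 values, made per their methods by normexp, loess and quantile steps. From the deposited intensity, normexp (offset 50), log2, 1 pass of cyclic loess and quantile normalization were rerun. The log2 values of the authors correlated at 0.9975 to 0.9995 with the result and were used as an alternative. Control and outlier spots were left out, and spots of a probe averaged. A probe was taken as well above background when the software rated 50% or more of its spots that way.

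Members were probes whose name in the files was Caprin1, G3bp1, G3bp2, Pabpc1, Fmr1, Fxr1, Fxr2 or Atxn2, and all 15 also matched by accession. Of 28685 probes with a RefSeq accession, 27235 (94.9%) matched a table of GRCm38.p6, used for names only. Each comparison was fitted with limma (lmFit, eBayes) on its own 4 arrays, without covariates, with Benjamini-Hochberg adjustment over 55681 probes, and called at an adjusted p under 0.05 and a fold above 2. The fit was also run on simulated data, with changes larger than any member difference of the main fit. That run does not test its power at the size of the member differences.

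Named genes were, by rule, all member probes, Tia1, Tial1 and Gapdh, up to 3 genes per list with the largest called change, and the 3 profiles closest to 1 member. Usp10, Atxn2l, Nufip2, Tyrobp and Cd68 were chosen after their values were seen. S100a4 and Col1a2 were named as the brightest of their list on an array. Lum, Ptprc, Cdh5 and Tie1 were named as not well above background on any array. Members and lists were chosen with earlier results of these data known. With so few arrays, their number sets the precision. Sequences are those of the array files. R 4.3.3, limma 3.58.1, Python 3.11.15, pandas 2.3.3, numpy 2.4.6 and matplotlib 3.10.9 were used.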

Additional observations from a re-analysis of the deposited data

How the results depend on the processing

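With 2 arrays per group, the calls of member probes were recomputed under other processing. Scaling to a common median of all probes moved the median of all probes to −0.67, −0.02 and 0.63 in TIA1 KO, in TIAR KO and between the knockouts, called 11, 1 and 6 member probes and put the member medians at −1.67, −0.42 and 1.17. Under it all-probe calls were 15801, 4139 and 8307 (main: 1959, 3218 and 1845), with 11.9%, 34.4% and 87.2% of them higher (main: 62.1%, 58.8% and 50.8%). It turned, in TIA1 KO MEF, G3bp1 (−1.32 and −1.25), the second Caprin1 probe (−0.58), Pabpc1 (−1.36), Fmr1 (−0.97, −0.30 and −0.48) and Krt19 (−0.53); in TIAR KO MEF, G3bp1 (−0.16 and −0.14), Pabpc1 (−0.23), Fxr2 (−0.10) and Gapdh (−0.15); and between the knockouts, the second G3bp1 probe (1.11), Fmr1 (0.52, 0.33 and 0.00039) and Atxn2 (0.81). Scaling to the median of bright probes called 2 members in TIA1 KO MEF, with 16942, 3986 and 2375 probes in all (94.8%, 71.3% and 26.2% higher, median of all probes 0.88, 0.43 and −0.47), and turned Gapdh in TIA1 KO MEF (0.14), the brighter G3bp2 probe in TIAR KO MEF (0.034) and the second G3bp1 probe between knockouts (0.013). The processed signal scaled to its 75th percentile called 0, 2526 and 1509 probes (27765, 9375 and 26113 at an unadjusted p under 0.05; 8.28% of the last called higher; median of all probes 1.98, −0.04 and −1.85). It turned the second Caprin1 probe in TIA1 KO MEF (−0.28) and Gapdh in TIAR KO MEF (−0.10). Between knockouts it turned the second G3bp1 probe (0.028) and Gapdh (−0.025, main: 0.13). The deposited log2 table called 1309, 3168 and 1278 probes and turned the second Caprin1 probe in TIA1 KO MEF (−0.50) and the second G3bp1 probe between knockouts (0.035). Without the fold threshold 1 member passed in TIAR KO MEF. Testing only probes above background called 2874, 3341 and 2870 probes (45.4%, 58.2% and 61.4% higher). Fitting all groups together called 3931, 2554 and 3167 (47.9%, 61.2% and 55.6% higher). Testing the fold itself called 435, 1017 and 411 (80.5%, 68.5% and 42.6% higher). An offset of 16 and quantile normalization without loess kept all-probe counts within 1.5 times and called no member, but without loess the second Caprin1 probe in TIA1 KO MEF (−0.23) and the second G3bp1 probe between knockouts (0.010) changed sign. The cause of these changes was not tested.

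Deviations of same-numbered arrays correlated at 0.278 between WT and TIA1 KO, 0.018 between WT and TIAR KO and −0.072 between the knockouts, so the numbers were not taken as pairs in all groups. With the replicate number as a block, 0 members were called in each comparison, and 524, 3383 and 0 probes in all (10672 of the last at an unadjusted p under 0.05).

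Leaving out each array in turn, with the lone array of a group assumed to vary like the other group, called 0 to 1 members in TIA1 KO MEF, 0 in TIAR KO MEF and 0 to 2 between the knockouts, the higher counts without the second TIA1 KO array. All-probe calls ran from 0 to 10727, from 2281 to 2970 and from 0 to 10195, with 0 between the knockouts without either TIAR KO array (6405 and 6588 at an unadjusted p under 0.05). Values that changed sign in TIA1 KO MEF ranged from −0.14 to 0.70 for the second G3bp1 probe, −0.49 to 0.55 for the second Caprin1 probe, −0.35 to 0.59 for Pabpc1, −0.41 to 1.42 for the brightest Fmr1 probe and −0.13 to 0.050 for Gapdh. In TIAR KO MEF they ranged from −0.15 to 0.69 for the second G3bp1 probe, −0.16 to 0.15 and −0.68 to 0.42 for G3bp2, −0.14 to 0.42 for the third Caprin1 probe, −0.32 to 0.62 for Pabpc1, and −0.98 to 0.85 and −0.60 to 0.11 for the brightest and the third Fmr1 probe. Between the knockouts they ranged from −0.24 to 0.23 for the second G3bp1 probe, −0.10 to 0.16 for Pabpc1 and −0.13 to 0.52 for the second Fxr1 probe. Dcp1b kept its call in TIAR KO MEF in all alternatives run, Pabpc4 in all but 2, and the other named list genes lost theirs in 1 or more. Dim probes, as those of Caprin1 on the TIA1 KO arrays, limit what can be read.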
